A study of Arabidopsis thaliana with 21 samples.

Results

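The jasmonate synthesis and JAZ genes described here are 10 genes, chosen by name and matched by locus tag: LOX2 (AT3G45140), LOX3 (AT1G17420), LOX4 (AT1G72520), AOS (AT5G42650), AOC1 (AT3G25760), AOC2 (AT3G25770), OPR1 (AT1G76680), OPR3 (AT2G06050), JAZ1 (AT1G19180) and JAZ10 (AT5G13220). They are 10 of the 26496 gene models with reads in any library. The study sequenced RNA from late heart stage embryos of Arabidopsis thaliana, dissected by hand, to ask how loss of the trihelix transcription factors ASIL1 and ASIL2 alters transcript levels. There were 3 biological replicates of each of 7 genotypes, 21 libraries in all. The Columbia-0 mutants were the single mutants asil1-1 and asil2-1 and the double mutant asil1-1 asil2-1. The double mutant asil1-1 asil2-2 had a mixed Columbia-0 and Landsberg erecta background. The asil2-2 single mutant was in Landsberg erecta, whose wild type is Ler, and the wild type of the Columbia-0 mutants is Col-0. No genotype received a treatment that another lacked, and each mutant genotype is represented by 1 allele or allele pair.

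Jasmonate is an oxylipin hormone made from linolenic acid. In the plastid, 13-lipoxygenases (LOX), allene oxide synthase (AOS) and allene oxide cyclases (AOC) act in turn to give OPDA. OPDA is reduced in the peroxisome by OPR3 and shortened by beta-oxidation, and JAR1 then joins the product to isoleucine. The conjugate makes the receptor COI1 bind JAZ repressors, whose destruction frees MYC transcription factors. Genes of synthesis and the JAZ genes are themselves induced by the hormone, and by wounding and touch. Jasmonate is best known for wound defence and for stamen development.

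The upstream sequences of 3 members are shown because the G-box CACGTG is the hexamer that MYC2 is known to bind. In the 250 bases before the annotated start (TAIR10.1, from RefSeq), AOS was the only 1 of the 10 members with it. LOX4 and AOC1 held the variant AACGTG on either strand, and OPR3 held neither. Capitals mark the hexamer found, and each sequence reads 5′ to 3′ on the gene's own strand.
AOS: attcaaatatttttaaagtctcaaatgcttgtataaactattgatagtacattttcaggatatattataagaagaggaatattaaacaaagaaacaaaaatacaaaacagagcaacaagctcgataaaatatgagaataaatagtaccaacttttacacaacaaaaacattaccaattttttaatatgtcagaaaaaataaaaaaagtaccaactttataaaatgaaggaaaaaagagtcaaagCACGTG
LOX4: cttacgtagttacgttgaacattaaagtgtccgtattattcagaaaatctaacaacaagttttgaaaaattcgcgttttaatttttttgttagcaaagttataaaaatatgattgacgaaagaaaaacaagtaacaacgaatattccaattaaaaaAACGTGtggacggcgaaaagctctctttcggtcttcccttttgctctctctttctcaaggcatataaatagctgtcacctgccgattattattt
OPR3: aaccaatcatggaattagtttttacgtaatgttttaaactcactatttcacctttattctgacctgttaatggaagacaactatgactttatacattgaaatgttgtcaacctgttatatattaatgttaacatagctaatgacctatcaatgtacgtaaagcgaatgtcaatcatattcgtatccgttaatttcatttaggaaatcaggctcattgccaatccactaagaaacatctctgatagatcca
In TAIR10.1 the gene bodies of the called members lie at chr2:2359114-2362375 for OPR3, chr1:5977323-5981521 for LOX3, chr1:6621777-6623668 for JAZ1, chr5:4218786-4221077 for JAZ10 and chr5:17097564-17099595 for AOS, and all are annotated as protein-coding. The AOS window is chr5:17099596-17099845 on the minus strand, and its hexamer is the 6 bases just before the annotated start. The LOX4 window is chr1:27308263-27308512 on the plus strand, with the hexamer starting 94 bases before the start. The OPR3 window is chr2:2362376-2362625 on the minus strand. Over 27561 such windows, 6.46% held CACGTG and 7.52% held AACGTG on either strand, and 13.3% held at least 1 of them. A match describes these letters and is not evidence of binding.

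Library totals ran from 1485767 to 8185801 counts, and the 19 libraries that did not stand apart held at least 4317564. Replicate 1 of asil1-1 asil2-1 and replicate 2 of asil1-1 asil2-2 stood apart, with median correlations to the other libraries of 0.793 and 0.922, against 0.967 to 0.983 for the rest. In that asil1-1 asil2-1 library a single locus took 45.7% of counts, against at most 3.88% elsewhere. ASIL1 had 1.28 to 5.75 CPM in the 9 libraries carrying asil1-1, against 32.4 to 41.4 CPM in wild types. ASIL2 had 0 to 13.5 CPM in the 6 libraries carrying asil2-2 and 37.6 to 61.5 CPM in the 6 carrying asil2-1, against 48.2 to 56.0 CPM in wild types, so the count does not check the asil2-1 label. Summed embryo markers (10 genes) had 704 to 744 CPM in Ler and 676 to 706 CPM in Col-0. Summed seed coat markers (10 genes) had 665 to 845 CPM in Ler and 988 to 1208 CPM in Col-0, and endosperm markers 229 to 340 CPM in Ler and 269 to 347 CPM in Col-0. In asil1-1 asil2-2 the sums were 502 to 703 CPM for embryo, 873 to 1331 CPM for seed coat and 360.5 to 535 CPM for endosperm markers. Against Ler, 7 of 7 tested endosperm markers and 8 of 10 seed coat markers were higher in asil1-1 asil2-2. Of 9 tested embryo markers, 8 were lower, where 49.85% of all models were. The median log2 differences were 0.60, 0.60 and -0.41. Against Col-0, 5 of 7 endosperm and 8 of 10 seed coat markers were higher in asil1-1 asil2-2, with medians of 0.43 and 0.54. In asil1-1 asil2-1 against Col-0, 7 of 7 and 8 of 10 were higher, with medians of 0.42 and 0.51. Of 9 embryo markers, 6 and 5 were lower in these 2 comparisons, where 51.84% and 48.28% of all models were. The part of the markers in the results below was not tested. In whole embryos, fewer cells of a type and less RNA per cell cannot be told apart.

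Levels are given in CPM, the share of a library's counts (per 1000000) scaled for library composition, as mean ± SD of 3 libraries. Of the 10 members, 8 had enough counts to be tested. Per kilobase of exon, JAZ1 was the most abundant member, with 41.0 ± 2.76 in Ler and 75.5 ± 15.9 in Col-0. LOX3 followed with 20.6 ± 2.57 in Ler and 49.5 ± 8.27 in Col-0. LOX4, AOS, OPR3 and JAZ10 lay between 4.58 and 12.2 in Ler and between 12.5 and 14.7 in Col-0. LOX2, the lipoxygenase known for wounded leaves, had only 1.05 ± 0.777 in Ler and 0.389 ± 0.0632 in Col-0.

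**Figure D1:**
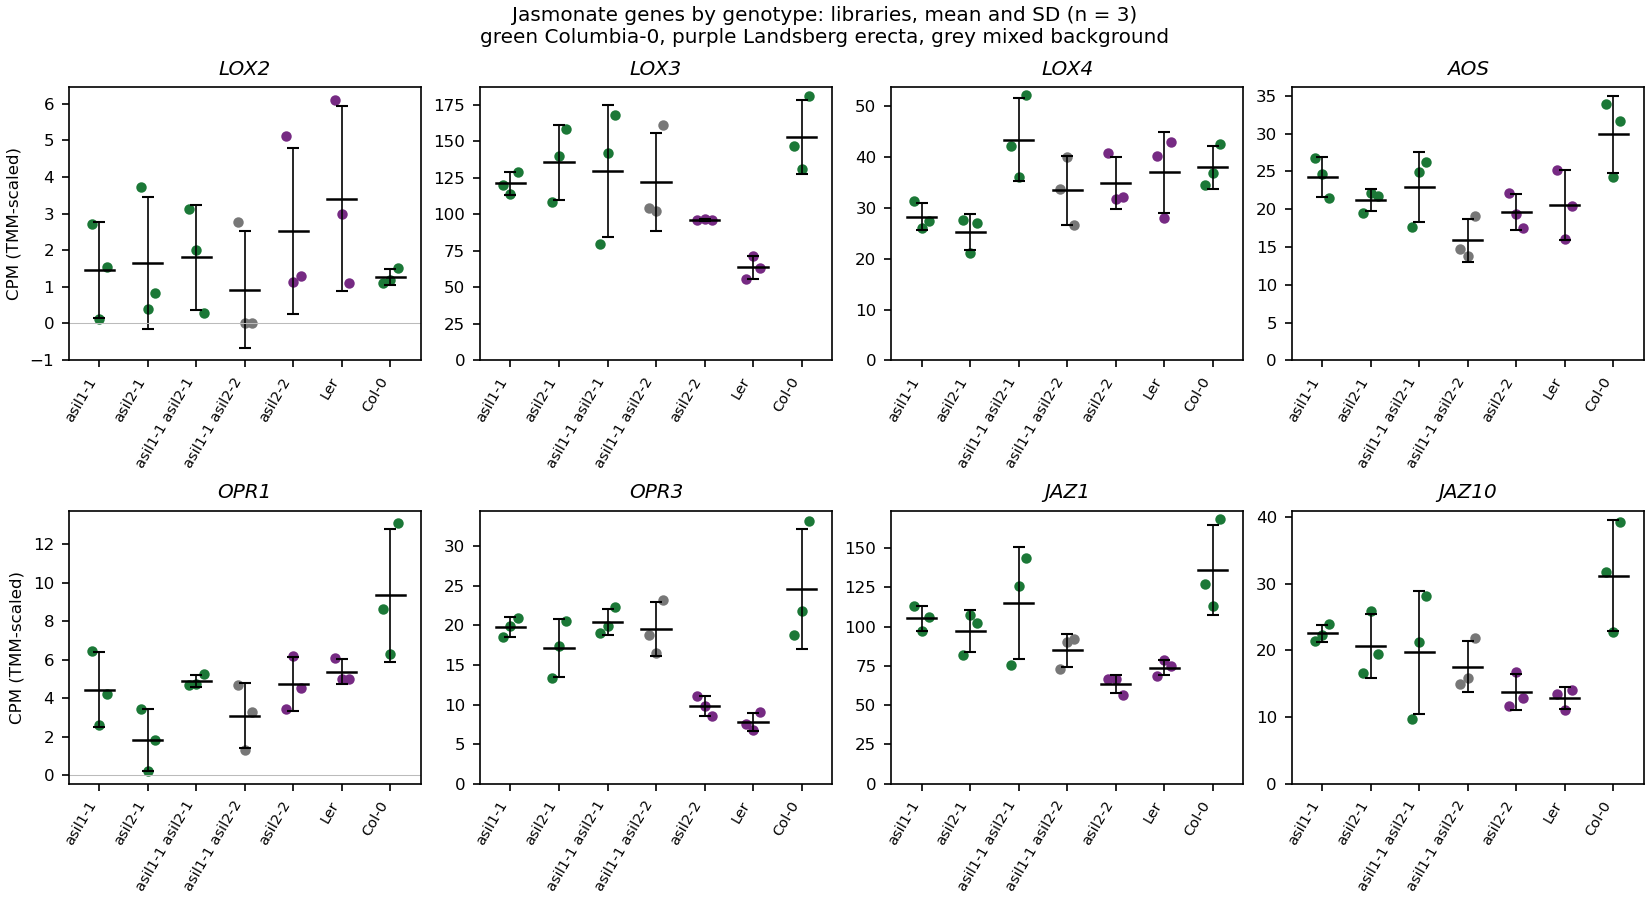
Library values (points), means and SD (bars) of the 8 tested members in CPM, by genotype. OPR3 lies lowest in the 6 Landsberg erecta libraries (purple), between 6.80 and 11.1 CPM, below all 12 Columbia-0 libraries (green), which start at 13.3 CPM. Grey points are the mixed double mutant.

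Of the cyclases, AOC3 and AOC4 had higher levels per kilobase than AOC1 and AOC2. AOC1 was covered by 2, 3 and 4 counts in Col-0, and by 0 counts in Ler, asil1-1, asil2-2 and asil1-1 asil2-2. AOC2 had at most 3 counts in any library and 0 in Ler and Col-0, where a count of 0 over the 3 libraries allows up to 0.190 CPM in Ler and 0.199 CPM in Col-0. AOC3 had 7.73 ± 0.945 CPM per kilobase in Ler and 11.6 ± 3.23 in Col-0. AOC4 had 2.09 ± 0.860 CPM per kilobase in Ler and 3.77 ± 1.29 in Col-0. Neither AOC1 nor AOC2 was tested, since neither passed the filter. AOC1 shares 4.46% and AOC2 1.95% of their 36-base words with other places in the genome, so counts of these near copies are uncertain, as are those of OPR1, which shares 5.82%.

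Between the wild types, 4 of the 8 tested members fell in Ler and none rose, while 7 had a lower value. OPR3, which reduces OPDA, had 7.60, 6.80 and 9.07 CPM in Ler, against 18.8, 21.8 and 33.2 CPM in Col-0. The groups did not overlap. OPR3 fell by 1.65 ± 0.23 on the log2 scale (SE, edgeR's quasi-likelihood test with Benjamini-Hochberg adjusted p = 6.89e-05). LOX3, a 13-lipoxygenase at the first step, had 56.0, 71.8 and 63.3 CPM in Ler, against 147, 130.8 and 180.8 CPM in Col-0. All 3 Ler libraries lay below all 3 Col-0 libraries. LOX3 fell by 1.26 ± 0.22 on the log2 scale (edgeR, adjusted p = 0.00079). Over all 18269 models tested, 4.96% were called in this comparison and 3.4% in the lower direction, and the median log2 fold change of all genes was -0.01 while that of the members was -0.83.

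The JAZ genes also differed between the wild types. JAZ1, a repressor bound by COI1, had 68.6, 78.4 and 74.7 CPM in Ler, against 127.1, 113.1 and 168.2 CPM in Col-0. The groups did not overlap, and JAZ1 fell by 0.88 ± 0.19 on the log2 scale (edgeR, adjusted p = 0.00576). JAZ10, a repressor known for splice forms that damp the response, had 13.5, 11 and 14.1 CPM in Ler, against 31.7, 22.7 and 39.2 CPM in Col-0. It fell by 1.27 ± 0.28 on the log2 scale (edgeR, adjusted p = 0.00744), again without overlap. Without Col-0 replicate 3 the adjusted p of edgeR was 0.0653 for JAZ1 and 0.0646 for JAZ10, and without Ler replicate 2 it was 0.0623 for JAZ10. LOX3 and OPR3 passed under all 12 alternatives tried.

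The other members were not called between the wild types. AOS, which makes the unstable allene oxide, had 20.5 ± 4.60 CPM in Ler and 29.9 ± 5.08 CPM in Col-0, a log2 difference of -0.54 ± 0.20 (edgeR, adjusted p = 0.154). OPR1, a reductase related to OPR3 with little known role in jasmonate synthesis, had 6.11, 5 and 5 CPM in Ler, against 8.64, 6.30 and 13.1 CPM in Col-0. The groups did not overlap, but the adjusted p was 0.531 (edgeR). LOX4, which acts with LOX3 in stamens, averaged 37.0 ± 7.95 CPM in Ler and 38.0 ± 4.15 CPM in Col-0. LOX2 had 6.11, 3 and 1.11 CPM in Ler and 1.11, 1.19 and 1.5 CPM in Col-0, and these overlapped. Across all models, 15.9% had every Ler library below every Col-0 library, and 5 of the 8 tested members did.

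Counts were assigned to models of the Columbia genome. A lower transcript level in Ler and fewer Ler reads assigned because of sequence differences cannot be told apart here. The 6 Landsberg erecta libraries, those of asil2-2 and Ler, can be set beside the 12 Columbia-0 libraries. For OPR3 the 6 ran from 6.80 to 11.1 CPM, all below the 12, which ran from 13.3 to 33.2 CPM. Of all tested models, 3.43% had this arrangement. For LOX3 the 6 ran from 56.0 to 97.1 CPM and the 12 from 80.0 to 180.8 CPM, and 1 Columbia-0 library, replicate 1 of asil1-1 asil2-1, lay below the highest Landsberg erecta library. For JAZ1 and JAZ10 the numbers of such libraries were 1 and 2, with replicate 1 of asil1-1 asil2-1 the lowest for both. That library is 1 of the 2 that stood apart. Next lowest was asil2-1 replicate 1, with 108.2 CPM for LOX3, 81.9 CPM for JAZ1 and 16.6 CPM for JAZ10. The highest Landsberg erecta values were 97.1 CPM for LOX3, 78.4 CPM for JAZ1 and 16.8 CPM for JAZ10. For LOX4, AOS, LOX2 and OPR1, at least 8 of the 12 lay below the highest Landsberg erecta value.

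The asil2-2 and asil2-1 mutants, in different backgrounds, offer a contrast of accessions from libraries that the wild types did not supply, though the alleles differ too. It was added after the data had been seen. OPR3 had 11.1, 9.86 and 8.60 CPM in asil2-2, against 13.3, 17.4 and 20.6 CPM in asil2-1. The groups did not overlap, and OPR3 fell by 0.79 ± 0.22 on the log2 scale (edgeR, adjusted p = 0.0424), where 4.74% of models were called and 3.13% were lower. The call was lost without 1 of 5 of the 6 libraries, with adjusted p from edgeR of 0.12 without asil2-1 replicate 2, 0.247 without asil2-1 replicate 3, and 0.0658, 0.137 and 0.187 without asil2-2 replicates 1, 2 and 3. It was also lost without the filter on low counts, at 0.0708. JAZ1 differed by -0.62 ± 0.19 (edgeR, adjusted p = 0.0654), LOX3 by -0.49 ± 0.21 and JAZ10 by -0.58 ± 0.28 on the log2 scale, none past the threshold. For LOX3, OPR3 and JAZ1, 3 of 8 tested members, every asil2-2 library lay below every asil2-1 library, as did 14.1% of models. LOX4 and OPR1 had the opposite sign, with every asil2-2 library above every asil2-1 library, as had 13.3% of models. LOX4 had 34.9 ± 5.10 CPM in asil2-2 and 25.3 ± 3.51 CPM in asil2-1, a log2 difference of 0.47 ± 0.19 (edgeR, adjusted p = 0.231). OPR1 had 4.74 ± 1.38 CPM in asil2-2 and 1.82 ± 1.60 CPM in asil2-1, a log2 difference of 1.32 ± 0.53 (edgeR, adjusted p = 0.225).

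In the mixed double mutant asil1-1 asil2-2, 8 of 8 tested members had a lower value than in Col-0, with a median log2 difference of -0.50. Of all models, 51.84% had a lower value there. Some of the same members lay above Ler, and JAZ10 lay above every Ler library and below every Col-0 library. The mixed double mutant has no single matching wild type, so mutation and background cannot be told apart in its comparisons. Against Ler, OPR3 had 18.8, 16.5 and 23.2 CPM in asil1-1 asil2-2, against 7.60, 6.80 and 9.07 CPM in Ler. The groups did not overlap, and OPR3 rose by 1.34 ± 0.24 on the log2 scale (edgeR, adjusted p = 0.0016) and passed under all 12 alternatives, with a log2 difference of 1.43 without the 2 libraries that stood apart (adjusted p = 0.000497). LOX3 had 104.1, 102 and 161.1 CPM in asil1-1 asil2-2, against 56.0, 71.8 and 63.3 CPM in Ler. It rose by 0.95 ± 0.22 (edgeR, adjusted p = 0.0183), but not without asil1-1 asil2-2 replicate 3 (0.0819), Ler replicate 1 (0.128) or Ler replicate 3 (0.087). Without the 2 libraries that stood apart LOX3 differed by 1.07 (edgeR, adjusted p = 0.000426). Of all models, 2.16% rose and 2.9% were called in this comparison. JAZ10 also lay above Ler in every library, so 3 of 8 tested members did, against 11.3% of all models. OPR1 lay below Ler in every library, as did 12.5% of models, with 4.66, 1.32 and 3.29 CPM in asil1-1 asil2-2, against 6.11, 5 and 5 CPM in Ler (log2 difference -0.65 ± 0.53, edgeR, adjusted p = 0.591). In all, 4 tested members were higher and 4 lower, with a median log2 difference of 0.01. OPR3 and LOX3, higher than in Ler, did not pass against Col-0. Each had a log2 difference of -0.31 from Col-0 (edgeR, adjusted p = 0.563 and 0.55).

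Against Col-0, AOS was the only member called in asil1-1 asil2-2. It had 14.7, 13.8 and 19.1 CPM in asil1-1 asil2-2, against 33.9, 24.2 and 31.7 CPM in Col-0. No library overlapped, and AOS fell by 0.88 ± 0.21 on the log2 scale (edgeR, adjusted p = 0.0251), where 1.02% of models fell and 2.28% were called. The call was lost without asil1-1 asil2-2 replicate 1 (adjusted p = 0.121) or 2 (0.0722), without Col-0 replicate 1 (0.121) or 3 (0.123), and when edgeR was fitted on the compared groups alone (0.13). Without the 2 libraries that stood apart AOS differed by -0.81 (edgeR, adjusted p = 0.0149). JAZ1 missed the threshold, with 85.0 ± 10.5 CPM in asil1-1 asil2-2 and 136.1 ± 28.6 CPM in Col-0, a log2 difference of -0.68 ± 0.19 (edgeR, adjusted p = 0.0615). In 4 of the 8 tested members every asil1-1 asil2-2 library lay below every Col-0 library, against 11.9% of models. With replicate as a block, JAZ1 also passed (adjusted p = 0.043), so 2 members were called rather than 1. JAZ1 passed as well without the 2 libraries that stood apart, at -0.71 (edgeR, adjusted p = 0.00686), and with DESeq2. These were the only 3 of 12 alternatives under which JAZ1 passed. Its adjusted p from edgeR reached 0.373 in the others. Measured against both wild types at once, in the same direction, no member was called, where 0.279% of models were, and DESeq2 also called no member. Without regard to direction, 954 models had an unadjusted p under 0.05 in edgeR against both wild types.

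**Figure D2:**
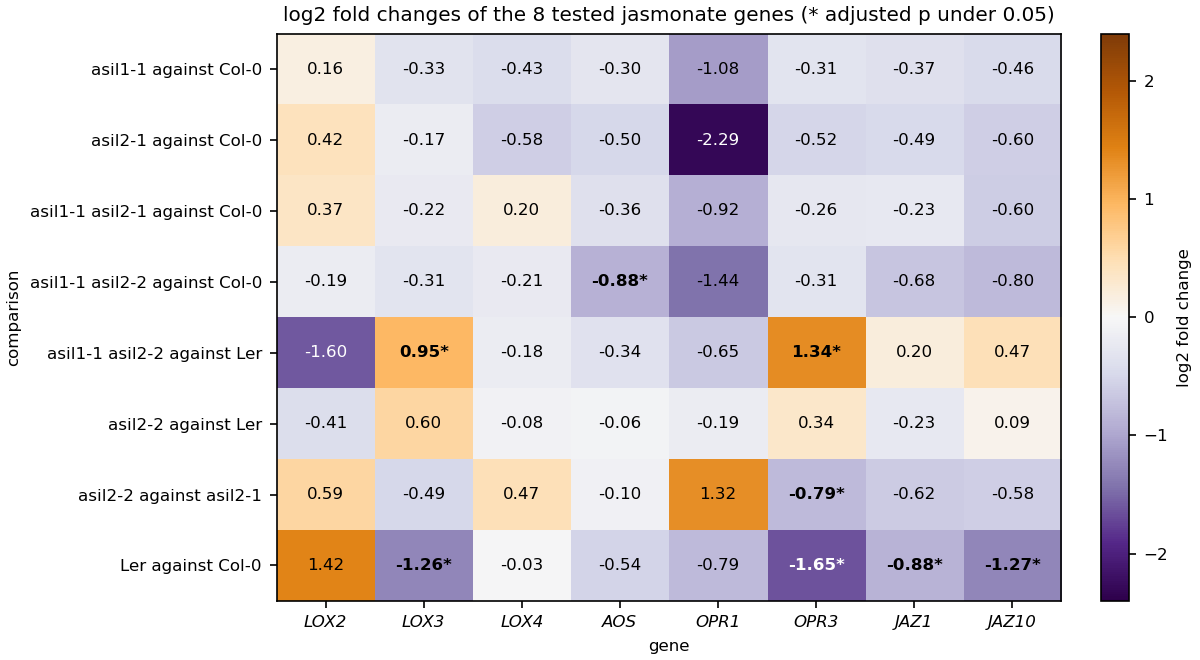
The log2 fold change of each tested member in 8 comparisons, as a grid of numbers with purple lower and orange higher and an asterisk where the adjusted p was under 0.05. The asterisks sit on LOX3, OPR3, JAZ1 and JAZ10 in Ler against Col-0, on OPR3 in asil2-2 against asil2-1, and on LOX3, OPR3 and AOS in the comparisons of asil1-1 asil2-2.

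The single mutants and asil1-1 asil2-1 gave no call among the members. In asil1-1 against Col-0, 7 of 8 tested members were lower with a median log2 difference of -0.35, and 0.0328% of all models were called by edgeR. An unadjusted p under 0.05 was found for 2 of the 8 members and for 2.48% of models, and 3 members had every asil1-1 library below every Col-0 library, as did 6.62% of models. In asil2-1 against Col-0, 7 of 8 were lower with a median of -0.51, where 0.0109% of all models were called, and 6 of the 8 members and 1.73% of models had an unadjusted p under 0.05. Every asil2-1 library lay below every Col-0 library for 4 members and for 6.04% of models. OPR1 had 3.41, 0.20 and 1.84 CPM in asil2-1, against 8.64, 6.30 and 13.1 CPM in Col-0. The groups did not overlap and the difference was -2.29 ± 0.53 on the log2 scale, but the adjusted p was 0.756 (edgeR). For asil2-2 against Ler, 5 of 8 were lower with a median of -0.07 and 0.0712% of models were called, and 1 of the 8 members and 2.58% of models had an unadjusted p under 0.05. That member was LOX3, with 96.2, 97.1 and 95.9 CPM in asil2-2, against 56.0, 71.8 and 63.3 CPM in Ler (log2 difference 0.60 ± 0.22, edgeR adjusted p = 1), higher in all 3 asil2-2 libraries than in any Ler library, as were 7.29% of models. JAZ1 lay the other way, as did 5.75% of models, with 66.5, 66.4 and 56.5 CPM in asil2-2, against 68.6, 78.4 and 74.7 CPM in Ler (log2 difference -0.23 ± 0.19, edgeR adjusted p = 1). In asil1-1 asil2-1 against Col-0, 6 of 8 members were lower, 0.0219% of models were called, and 1 of the 8 members and 16.1% of models had an unadjusted p under 0.05. DESeq2 called no member in these 4 comparisons. In the same order, 50.91%, 49.77%, 48.78% and 48.28% of all models had a lower value. Of the 8 other tested JAZ genes, 6, 5, 8 and 4 were lower. Of 12 early touch and wound genes, 12, 10, 9 and 9 were lower. A miss of the threshold does not show that the levels were alike.

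These comparisons with Col-0 share its 3 libraries, so a high Col-0 library moves them all. Col-0 replicate 3 was above its group mean for 8 of 8 tested members, by a median of 0.29 on the log2 scale, and for 12 of 12 early touch and wound genes, by a median of 0.25. Col-0 replicate 2 was above for none of the 8 members. Replicate 3 of asil1-1 asil2-2 was above for 6 of 8 members and 12 of 12 touch genes. In asil1-1 asil2-1, replicate 3 was above for 7 of 8 members and 9 of 12 touch genes, by medians of 0.25 and 0.26. The means of both double mutants include the libraries that stood apart, which lay low and so place the other replicates higher. Their medians for members and touch genes were -0.22 and -0.32 in asil1-1 asil2-1 replicate 1. In asil1-1 asil2-2 replicate 2 they were -0.20 and -0.31. Of the 12 touch genes, replicate 3 was above for 11 in asil1-1, 10 in asil2-1, 9 in asil2-2 and 10 in Ler. Of the 8 members, it was above for 6, 6, 0 and 5 in these genotypes. Whether the shift in Col-0 replicate 3 affects the Col-0 comparisons was not tested beyond leaving out that library.

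**Figure D3:**
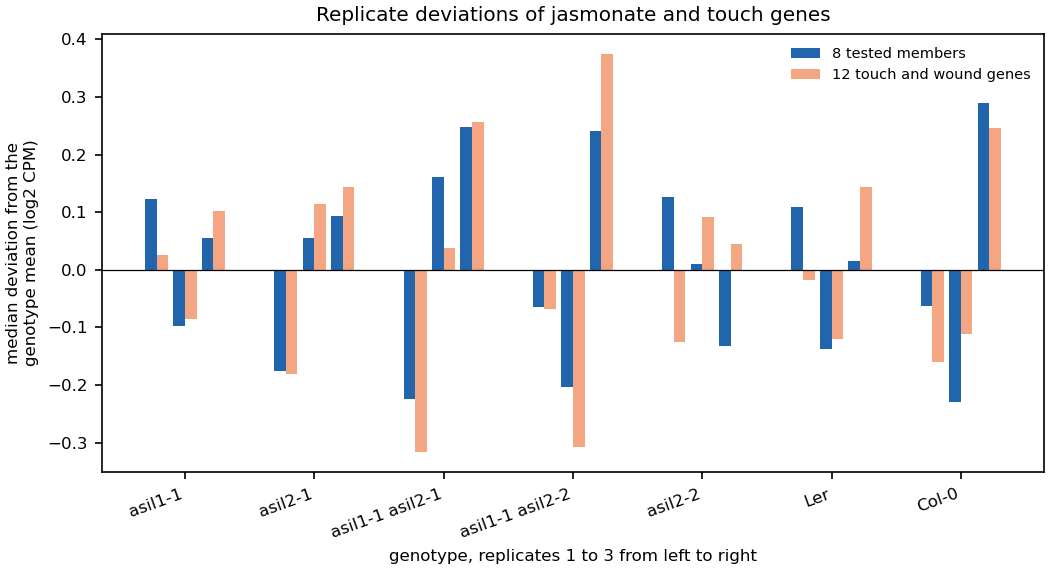
Median deviation from the genotype mean, in log2 CPM, for the 8 tested members (blue) and the 12 touch and wound genes (orange), by library. Both are highest, within Col-0, in replicate 3, at 0.29 and 0.25, and in asil1-1 asil2-2 in replicate 3, at 0.24 and 0.38. In asil1-1 asil2-1 both are also highest in replicate 3, at 0.25 and 0.26. The means of these double mutants include the libraries that stood apart.

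An interaction of asil1-1 and asil2-1 was not called for any member, where 0.0109% of models were, and 3 of the 8 members and 6.84% of models had an unadjusted p under 0.05. LOX4 had the lowest p, with 42.1, 36 and 52.2 CPM in asil1-1 asil2-1, 31.3, 26.1 and 27.5 CPM in asil1-1 and 27.6, 21.2 and 27.0 CPM in asil2-1, against 34.5, 36.8 and 42.6 CPM in Col-0. The interaction term was 1.21 ± 0.27 on the log2 scale (edgeR, adjusted p = 0.275), and DESeq2 called it (adjusted p = 0.0179). The response to asil2-1 minus that to asil2-2 was not called for any member, where 0.00547% of models were, and 3 of the 8 members and 1.65% of models had an unadjusted p under 0.05. A test of any difference among the 7 genotypes called OPR3 (adjusted p = 0.000155), JAZ1 (0.00295), LOX3 (0.00717) and JAZ10 (0.0294) by edgeR, where 10.8% of models were called. LOX3 was lost without Ler replicate 1 (0.0573). JAZ10 passed under 17 of 26 alternatives. It was lost without asil1-1 replicate 2 (0.0514) or 3 (0.0501), asil2-2 replicate 1 (0.0672) or 3 (0.0685), Ler replicate 1 (0.0651), 2 (0.0836) or 3 (0.0635), or Col-0 replicate 1 (0.0852) or 3 (0.129).

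The rest of the pathway was described from lists of other genes. Over all models, 4.96% were called in Ler against Col-0 and 3.4% were called lower. Among the other 8 tested JAZ genes of 11, 3 fell in Ler against Col-0 and none rose. JAZ6 had 1.85, 1.40 and 1.67 CPM in Ler, against 8.19, 8.69 and 12.2 CPM in Col-0, and fell by 2.54 ± 0.43 on the log2 scale (edgeR, adjusted p = 0.000589). JAZ5 had 15.2, 17.6 and 20.9 CPM in Ler, against 37.4, 38.0 and 64.8 CPM in Col-0, and fell by 1.38 ± 0.27 (edgeR, adjusted p = 0.00204). JAZ2 fell by 0.79 ± 0.19 (edgeR, adjusted p = 0.0141), but not without Col-0 replicate 3 (0.135), Ler replicate 2 (0.0924) or Ler replicate 3 (0.0881). JAZ5 and JAZ6 were also lower in asil2-2 than in asil2-1, by -1.26 ± 0.27 and -2.65 ± 0.47 (edgeR, adjusted p = 0.00564 and 0.000951). The other 5 did not pass between the wild types.

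Among 16 tested genes of 19 on the list of further synthesis genes, 1 fell in Ler against Col-0. This was OPCL1, which activates the OPR3 product in the peroxisome. It had 16.7, 21.4 and 15.5 CPM in Ler, against 51.1, 57.9 and 96.7 CPM in Col-0, and fell by 1.94 ± 0.40 (edgeR, adjusted p = 0.00367). The other lipoxygenase and beta-oxidation genes, among them LOX6 (log2 difference -1.51 ± 0.44, adjusted p = 0.0536), did not pass. Of 7 tested turnover genes of 11, CYP94C1, which oxidises the isoleucine conjugate, fell by 0.61 ± 0.13 (edgeR, adjusted p = 0.00546, and 0.0656 without Ler replicate 3). JMT, a jasmonate methyltransferase, rose by 2.24 ± 0.49 (edgeR, adjusted p = 0.00645, and 0.0537 without Col-0 replicate 2). Of 11 tested signalling genes of 13, MYC3 rose, with 77.5, 70.2 and 75.7 CPM in Ler, against 35.9, 36.1 and 37.5 CPM in Col-0 (1.03 ± 0.15, edgeR, adjusted p = 0.000122). In asil2-2, MYC3 had 34.2, 31.0 and 44.9 CPM, and it fell by 1.02 ± 0.15 against Ler (edgeR, adjusted p = 0.00254). MYC2 (-0.60 ± 0.22) and COI1 (-0.17 ± 0.17) did not pass. None of the 5 tested response markers of 10 passed between the wild types, where 0 had an adjusted p under 0.05 by edgeR; VSP2 and CORI3 passed the test of any difference among genotypes (adjusted p = 0.00695 and 0.0167).

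Of 12 early touch and wound genes, 3 fell in Ler against Col-0, and 11 had a lower value, with a median log2 difference of -0.60. Of all models, 3.4% were called lower in this comparison and 50.69% had a lower value. RRTF1 fell by 1.44 ± 0.19 (edgeR, adjusted p = 3.16e-05) and CML38 by 0.98 ± 0.18 (edgeR, adjusted p = 0.0012). ERF6 fell by 0.90 ± 0.21 (edgeR, adjusted p = 0.0103), but not without Col-0 replicates 2 (0.0513) or 3 (0.0612) or Ler replicate 2 (0.0767). The summed level of the 12 touch genes was 761.7 to 868 CPM in Ler and 1044 to 1368 CPM in Col-0, 733 to 833 CPM in asil2-2 and 842 to 1064 CPM in asil2-1. The summed level of the 10 members was 220 to 231 CPM in Ler and 357 to 511 CPM in Col-0. The part of these genes in the members' difference was not tested.

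**Figure D4:**
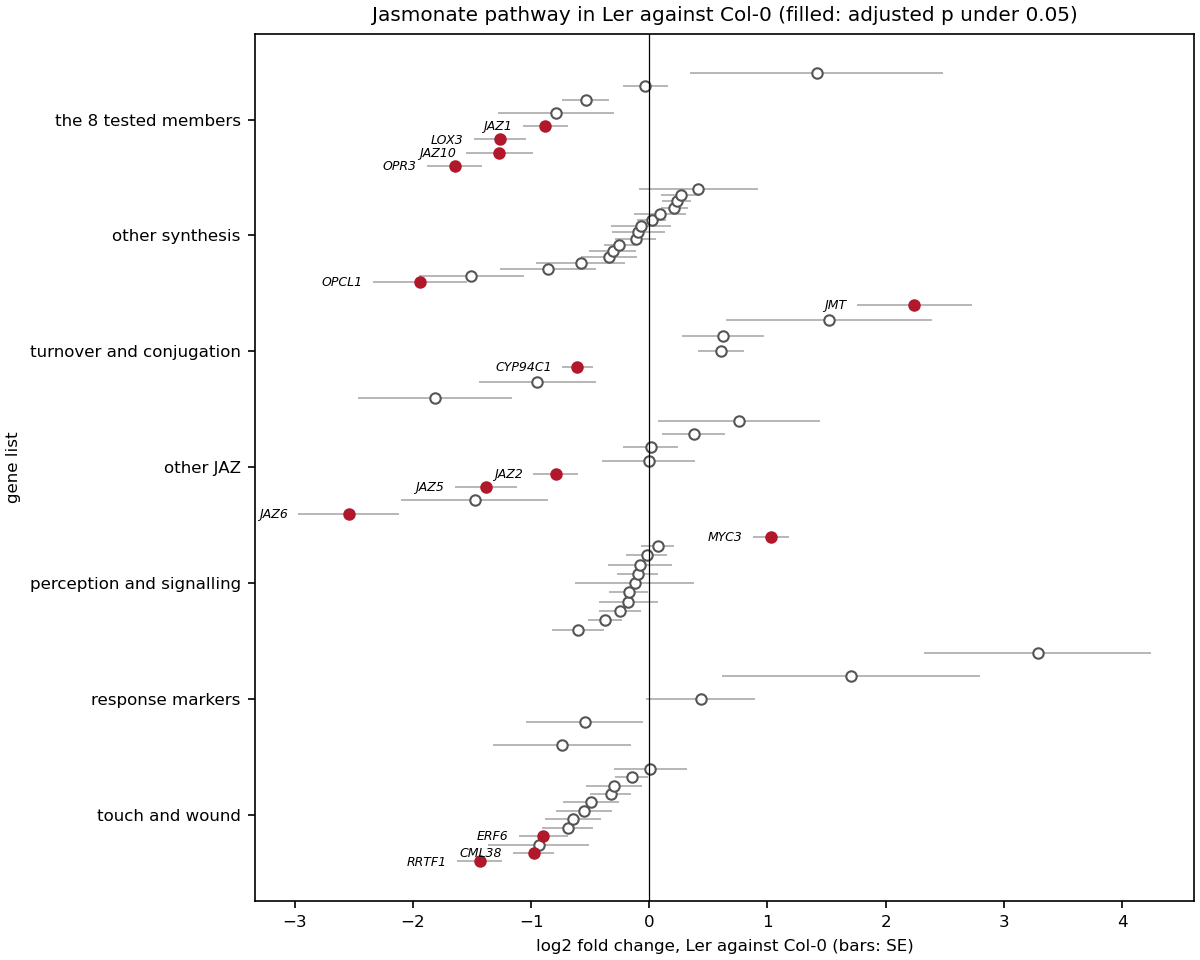
log2 fold change of Ler against Col-0 for tested genes of 7 lists, with SE bars and filled red points at adjusted p under 0.05. The filled members and JAZ genes lie to the left of 0, and JMT (2.24) and MYC3 (1.03) lie to the right.

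The mixed double mutant also differed from Col-0 in other pathway genes, in a comparison where 2.28% of all models were called. JAZ6 fell by 1.92 ± 0.43 and JAZ5 by 1.11 ± 0.27 in asil1-1 asil2-2 (edgeR, adjusted p = 0.0187 and 0.0293). JOX1, an oxidase that inactivates jasmonate, rose by 1.7 ± 0.35 and JMT by 2.11 ± 0.50 (edgeR, adjusted p = 0.00891 and 0.0249). CYP94C1 fell by 0.53 ± 0.13 (edgeR, adjusted p = 0.0352), and VSP2, a storage protein used as a marker of the response, had 0.17, 0 and 0.33 CPM in asil1-1 asil2-2, against 2.44, 3.07 and 2.78 CPM in Col-0 (edgeR, adjusted p = 0.0175). Each of these 6 calls was lost without Col-0 replicate 3 and when only the compared groups were fitted. Without Col-0 replicate 3 the adjusted p was 0.12 for JAZ6, 0.24 for JAZ5, 0.0677 for JOX1, 0.127 for JMT, 0.134 for CYP94C1 and 0.0632 for VSP2. Calls were also lost, at adjusted p of 0.0508 to 0.167 in edgeR, without asil1-1 asil2-2 replicate 1 (JAZ5, JAZ6, CYP94C1 and VSP2), 2 (JAZ5, JOX1 and CYP94C1) or 3 (JAZ6 and JMT), and without Col-0 replicate 1 (JOX1 and CYP94C1) or 2 (JMT, CYP94C1 and VSP2). RRTF1 fell by 1.14 ± 0.19 and CML38 by 1.10 ± 0.18 (edgeR, adjusted p = 0.00132 for both), under all 12 alternatives. Against Ler, MYC3 fell by 1.07 ± 0.16 in asil1-1 asil2-2 (edgeR, adjusted p = 0.000224), under all 12 alternatives. Between the wild types, JAZ5, JAZ6, CYP94C1, RRTF1 and CML38 were also called lower in Ler than in Col-0, and JMT and MYC3 higher. JOX1 and VSP2 were not called there. In the mixed double mutant, mutation and background cannot be told apart for these genes.

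Among the marker lists, none of 9 tested embryo genes was called in Ler against Col-0, where 4.96% of all models were. FWA, an endosperm marker, fell by 2.27 ± 0.45, and it was the 1 called gene of 7 tested. Of 10 seed coat genes, TT10 fell by 1.13 ± 0.19 and SBT1.7 by 0.67 ± 0.16, while PMEI6 rose by 3.41 ± 0.62 (edgeR, adjusted p = 0.000572, 0.0162 and 0.00117, and 0.00264 for FWA). SBT1.7 was lost without Col-0 replicate 1 (0.0574) or 2 (0.093) or Ler replicate 1 (0.109) or 3 (0.0689). Their part in the members' differences was not tested.

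The tested members did not vary as 1 set across the 19 libraries that did not stand apart. Of their 28 pairs, 9 had a Pearson r above 0.5 in log2 CPM and 8 had an r below 0. The 6 pairs among LOX3, OPR3, JAZ1 and JAZ10 ran from 0.77 to 0.902, with JAZ1 and JAZ10 the highest. These genes are the members called lower in Ler than in Col-0. That call came from libraries used here, so these values are not independent of it. For deviations from the genotype means, the 6 pairs ran from 0.543 (OPR3 and JAZ10) to 0.851 (LOX3 and JAZ1), with 0.710 for JAZ1 and JAZ10. In log2 CPM, OPR1 and OPR3 had r = 0.0099 and LOX3 and LOX4 -0.117. LOX2 had -0.549 with LOX3 and -0.52 with JAZ10. These libraries share depth and scaling, and the values are descriptive. The 5 other genes with profiles most like the members' mean, by Pearson r over 19 libraries, were AT2G29510 (0.894), AT4G20880 (0.877), AT5G35735 (0.877), BCB (0.869) and AT5G41550 (0.863). Over all 21 libraries these were 0.796, 0.583, 0.556, 0.845 and 0.853.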

How the data were processed

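RNA of 21 libraries was measured as read counts per gene model, as deposited, whole numbers with 0 where a model was not listed. The submitters' processing notes name Bowtie 0.12.7, edgeR 3.0.8 and TAIR10. The sources used here do not give the counting rule, strand or multi-mapping treatment. Members and lists were chosen with earlier results of these data known. Groups came from the labels. All libraries entered 1 model of 7 groups in edgeR 4.0.16 (R 4.3.3), with TMM scaling and filterByExpr (minimum count 10, minimum total 15), which left 18269 models. Contrasts used the quasi-likelihood test with Benjamini-Hochberg adjustment and a threshold of 0.05; SE is the log2 fold change divided by the root of F. The fit was tested on simulated data. Alternatives were RLE scaling, no filter, a replicate block, the compared groups alone, DESeq2 1.42.0, leaving out the 2 libraries that stood apart, and leaving out each library. Same-numbered libraries of asil1-1 asil2-2 and Col-0 deviated together (r = 0.164, 0.118 and 0.212). The block was read as pairing there, from the data and not the labels, and not elsewhere. All 3 values were also positive for Ler against Col-0 (0.133, 0.0846 and 0.126) and asil1-1 asil2-2 against Ler (0.107, 0.104 and 0.0595). The same held for asil1-1 asil2-1 against Col-0 (0.0706, 0.0411 and 0.0869), so limiting the reading to 1 comparison was a choice. All members were named, and of the other lists, genes that passed or had the lowest p for any difference; part of these are given. Coordinates are TAIR10.1; sequences are RefSeq's. No 2 replicates held identical counts. Read counts give the precision of low genes. In the main fit, the p-values set each difference against a spread between replicates that was estimated over all 21 libraries.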

Additional observations from a re-analysis of the deposited data

How the results depend on the processing

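The numbers of members called in the single mutants against their wild types, in asil1-1 asil2-1, in Ler against Col-0 and in the allele contrast kept within 1.5 times of the reported count under RLE scaling, no filter, the replicate block, DESeq2 and without the 2 libraries that stood apart. Fitting only the compared groups called 1 member in asil2-2 against Ler, LOX3, and 0 in asil1-1 asil2-2 against Col-0. In that last comparison the replicate block, DESeq2 and leaving out the 2 libraries each called 2 members, and the block changed no other count of members called. DESeq2 called 1 member in the interaction. In asil2-2 against asil2-1, RLE scaling and DESeq2 called 2 members, no filter 0, and the compared groups alone and leaving out the 2 libraries 3. Any difference among genotypes was called for 7 members by DESeq2 and without the 2 libraries. The causes were not tested.

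Leaving out 1 library at a time gave 0 to 1 members called in asil1-1 asil2-2 against Col-0, 1 to 2 against Ler, 2 to 4 in Ler against Col-0, 0 to 1 in asil2-2 against asil2-1 and 2 to 7 for any difference. Over all genes, the 907 calls in Ler against Col-0 became 2150 with the compared groups alone, 2351 without the 2 libraries and 550 to 634 with a library left out. The 417 calls in asil1-1 asil2-2 against Col-0 became 144, 969 and 146 to 641, and 806 with DESeq2. The 529 calls in asil1-1 asil2-2 against Ler became 199, 915 and 219 to 926, and 1028 with DESeq2. For asil2-2 against asil2-1, 866 became 1521, 2284 and 545 to 632. For any difference, 1964 became 3835 with DESeq2 and 3767 without the 2 libraries.

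The sign of LOX2, a gene of low counts, turned often. Its log2 difference was -0.14 in asil1-1, -0.13 in asil2-1 and 0.43 in the interaction with the replicate block, and -0.22 in asil1-1 asil2-1 and 0.12 in asil1-1 asil2-2 against Col-0 without the 2 libraries, where LOX3 in asil1-1 asil2-1 was 0.0235. With a library left out, LOX2 ran from -0.60 to 0.73 in asil1-1, -0.98 to 0.85 in asil2-1, -1.48 to 0.31 in asil2-2, -0.21 to 0.96 in asil1-1 asil2-1 and -5.88 to 0.48 in asil1-1 asil2-2 against Col-0. It ran from -0.79 to 1.19 in the interaction, -0.56 to 1.89 in the allele contrast and -0.47 to 1.98 in asil2-2 against asil2-1. In asil2-2 against Ler, LOX4 ran from -0.25 to 0.0311, AOS from -0.21 to 0.12, OPR1 from -0.43 to 0.0022 and JAZ10 from -0.0809 to 0.20. In asil1-1 asil2-1, LOX3 ran from -0.46 to 0.021 and OPR3 from -0.42 to 0.0049, and LOX4 in Ler against Col-0 ran from -0.15 to 0.14. None of these differences was called.
Depth limits AOC1 and AOC2, with at most 4 counts in a library. LOX2 had 0 to 43 counts in a library, and its coefficient of variation between replicates, 0.836, was at percentile 95.1 among genes of like level.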
